A study of Homo sapiens with 44 samples.

Results

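The comparison described here is between Ccd-18Co colon fibroblasts stimulated with tumour necrosis factor (TNF) and unstimulated cells of the same line, and it uses 8 of the 44 bulk RNA-seq libraries of a cytokine response screen. The members were taken from the sample titles, 4 libraries with TNF and 4 unstimulated ones. Ccd-18Co is a fibroblast line from normal human colon, so that 1 line stands for the cell type. Cells of both groups were kept without serum for 72 h and then received 10 ng/ml TNF or no cytokine for 24 h. The 4 libraries with IL-1β, used at 0.1 ng/ml per the sample labels, serve below as a second inflammatory stimulus. Whether replicates were separate cultures is not stated, so the p-values measure only the spread between these samples, which may be technical.

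TNF is a cytokine of activated macrophages and T cells that binds the receptor TNFR1 on fibroblasts. The receptor recruits adaptor proteins and ubiquitin ligases that free the transcription factor NF-κB from its inhibitor IκBα, and it also activates the MAP kinases that act on AP-1. NF-κB then switches on leukocyte-attracting chemokines, survival genes and its own inhibitors, which limit the response. In the inflamed gut TNF is a target of antibody treatment, and fibroblasts are among the cells that respond to it.

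Total counts were 1365019 to 1725354 in the unstimulated libraries and 1254254 to 1815955 with TNF, and the median tested gene had 34 and 31 counts. A count of 3, taken as the floor below which a level in a library was not measured, corresponded to 1.47 to 2.58 CPM, the unit used for all levels below, in which a library's scaled total is set to 1000000. Floors and counting intervals cover counting error only. The collagen genes COL1A1 and COL3A1 and the proteoglycan genes DCN and LUM, which mark fibroblasts, had at least 1148 counts in each of the 8 libraries. The other genes of the list of 12 fibroblast markers ranged from PDGFRB, at 3 to 17 counts, to COL1A2, at 1145 to 3667. The epithelial genes EPCAM and CDH1, the endothelial genes CDH5 and KDR and the glial gene SOX10 were at 0 counts in all 8 libraries, and the leukocyte gene PTPRC had at most 2 counts. Other members of these marker lists had counts, up to 273 for UCHL1 (neuronal), 26 for VIL1 and 22 for KRT18 (epithelial) and 19 for CD68 (macrophage). Of these KRT18 fell without holding (log2 fold change -2.02 ± 0.58, adjusted p = 0.0151), while UCHL1 and VIL1 had log2 fold changes of -0.03 ± 0.20 and -0.31 ± 0.66 (adjusted p = 0.955 and 0.838), and the part of other cells in the results was not tested. On a list of muscle markers ACTG2 had 436 to 2169 counts and MYOCD 14 to 128. MYH11, LMOD1 and MYOG had at most 14, 12 and 3 counts, and DES, MYOD1 and CKM had 0. Unstimulated replicate 4 was the highest of its group in 18 of the 22 chemokine and cytokine genes that rose and had a count there, against 2035 of 9488 genes tested. TNF replicate 4 was the highest of its group in 14 of 23 such genes, against 2491 of the 9488. In the 29 contractile genes unstimulated replicate 1 was highest in 18 and TNF replicate 1 in 17, against 2778 and 2182 of the 9488. The libraries with the same number thus stood out in both groups for these lists. For the 9 collagens that fell this was not so. Unstimulated replicate 3 was highest in 4 of them and TNF replicate 2 in 5, against 2724 and 2602 of the 9488. Values without a library are given where they bear on a result.

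Of the 9513 genes tested, 511 were higher and 579 lower with TNF at an adjusted p under 0.05 (quasi-likelihood test of edgeR, Benjamini-Hochberg adjusted over all genes tested), and such genes are said below to have risen or fallen. A further condition of an absolute log2 fold change above 1.5, the threshold in the study's methods, left 176 genes higher (1.85%) and 223 lower (2.34%). The median log2 fold change over all genes tested was -0.018. At the level of single genes, a rise or fall is said to have held where the gene passed in the same direction in each of 14 further fits in which it was tested, which changed the scaling, the test, the filter or the libraries or removed a trend with transcript length and GC content. Fits with a replicate block do not count toward this and are given at the end. Of the genes that passed, 248 higher and 295 lower ones held. The 176 genes with the larger rises had a median level of 8.13 CPM unstimulated and 48 CPM with TNF. Of them 27 were at or below the floor in every unstimulated library, and 13 exceeded 1000 CPM with TNF against 1 before. The 223 genes with the larger falls went from a median of 26.7 to 5.92 CPM, and 39 of them were at or below the floor in every TNF library. Among the 223, 5 exceeded 1000 CPM unstimulated and 2 with TNF.

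**Figure D1:**
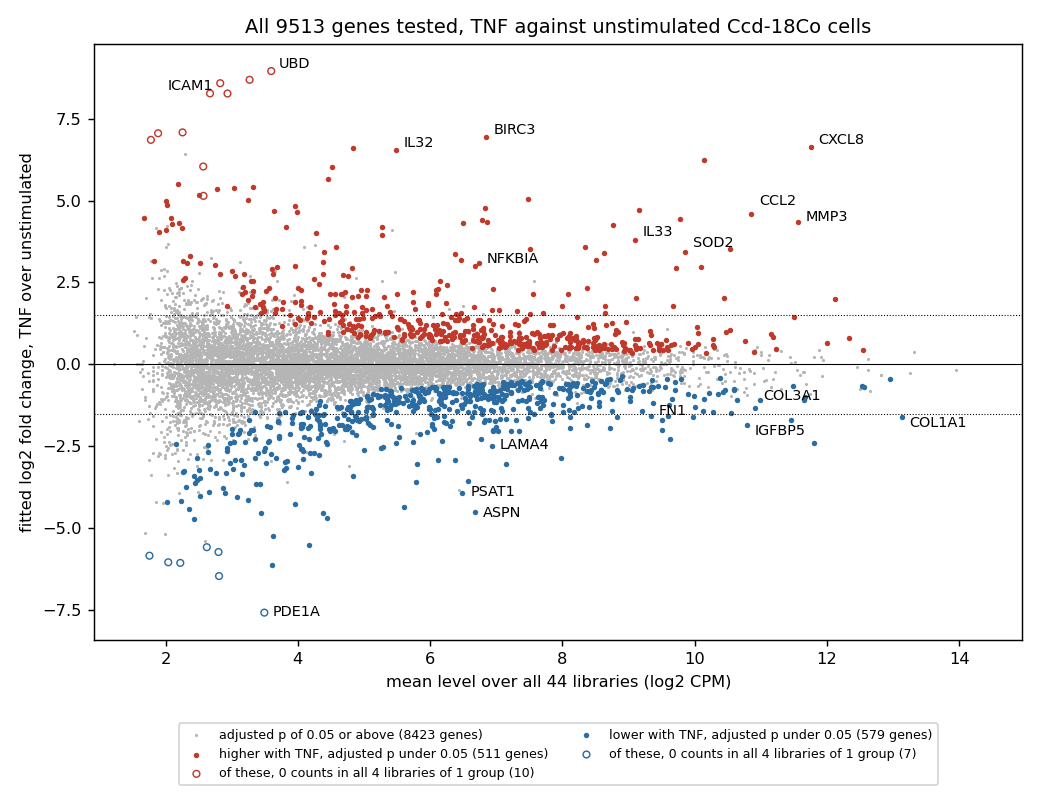
Log2 fold change of each of the 9513 genes tested (vertical axis, TNF over unstimulated) against its mean level over all 44 libraries (horizontal axis, log2 CPM). Red and blue points are the 511 genes higher and the 579 lower with TNF at an adjusted p under 0.05, dotted lines mark a log2 fold change of 1.5, and hollow points are genes at 0 counts in 1 group, whose fitted fold changes are not bounds. Toward the right of the plot CXCL8, MMP3 and CCL2 lie above the upper line and COL1A1 just below the lower one.

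Genes of NF-κB feedback and of the TNF receptor complex were among those that rose. Of 13 tested NF-κB subunits and feedback genes, 5 rose and 0 fell, and 2 of the 5 held (3 rose without unstimulated replicate 2). The median log2 fold change was 1.17, and over all genes tested 5.37% rose and 6.09% fell. NFKBIA, which encodes IκBα, was at 21.5, 29.9, 71.1 and 56.0 CPM unstimulated and 399, 354, 396 and 357 CPM with TNF (log2 fold change 3.09 ± 0.27, adjusted p = 7.31e-12). TNFAIP3, which encodes the ubiquitin-editing enzyme A20, was at 0.490, 0, 4.22 and 0 CPM unstimulated and 62.8, 34.5, 45.8 and 65.3 CPM with TNF (log2 fold change 5.42 ± 0.85, adjusted p = 9.08e-06). Both genes were higher in every TNF library than in any unstimulated one, and without unstimulated replicate 3 the log2 fold change of TNFAIP3 was 7.53 ± 1.07. NFKB1, the gene of the p50 subunit, was at 18.1, 12.4, 4.93 and 2.05 CPM unstimulated and 29.7, 29.3, 39.0 and 36.4 CPM with TNF (log2 fold change 1.81 ± 0.51, adjusted p = 0.0137). Its call did not hold, with adjusted p = 0.0548 without unstimulated replicate 3 and 0.0677 without unstimulated replicate 4. The kinase genes CHUK and IKBKB had log2 fold changes of -0.09 and 0.23 (adjusted p = 0.919 and 0.862).

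Among 19 tested genes of TNF receptor signalling, 5 rose, 0 fell, and all 5 held (median 1.20). BIRC3, a ubiquitin ligase (cIAP2) of the receptor complex that restrains cell death, was at 2.45, 1.46, 0.704 and 23.9 CPM unstimulated and 724, 948, 712 and 1038 CPM with TNF (log2 fold change 6.92 ± 0.61, adjusted p = 8.72e-12). Unstimulated replicate 4 was the highest control at a level far below the TNF libraries, and without it the log2 fold change was 8.97 ± 0.71 (adjusted p = 1.77e-12). Its relative BIRC2 (cIAP1) was at 76.9, 66.3, 61.9 and 74.5 CPM unstimulated and 165, 196, 188 and 276 CPM with TNF (log2 fold change 1.56 ± 0.24, adjusted p = 6.74e-06). CFLAR, which blocks caspase 8, was at 46.0, 32.1, 45.0 and 42.4 CPM unstimulated and 100.3, 103, 103 and 75.5 CPM with TNF (log2 fold change 1.20 ± 0.22, adjusted p = 7.91e-05). All 3 genes were separated between the groups, with the smallest gap in CFLAR. The adaptor TRAF3 (log2 fold change 2.69 ± 0.60, adjusted p = 0.00147) and the kinase MAP3K5 (log2 fold change 1.58 ± 0.42, adjusted p = 0.00772) also rose. The receptor gene itself, TNFRSF1A, had a log2 fold change of -0.50 ± 0.54 (adjusted p = 0.644). In the wider list of apoptosis and survival genes, 5 of 20 rose, 0 fell, and all 5 held. The BCL2 relative BCL2A1, which protects mitochondria, was at 0.490, 0, 0 and 4.10 CPM unstimulated and 67.8, 141, 128 and 136 CPM with TNF (log2 fold change 6.62 ± 0.87, adjusted p = 3.54e-07), with 8.69 ± 1.15 without unstimulated replicate 4. IER3 (log2 fold change 2.95 ± 0.44, adjusted p = 3.59e-06), the death agonist BID (log2 fold change 1.66 ± 0.29, adjusted p = 4.96e-05), the NOD-pathway kinase RIPK2 (log2 fold change 1.36 ± 0.27, adjusted p = 3.35e-04) and CASP4 (log2 fold change 0.77 ± 0.16, adjusted p = 6.02e-04) completed the list, so that it held genes of both survival and death pathways.

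The sequences upstream of these genes are shown because NF-κB recognises a short motif, called κB, near many of its targets. In RefSeq sequence of the GRCh38.p14 build, windows of 250 bases before to 50 after the annotated start were searched on both strands, and 7824 of the 9513 genes tested (82.25%) had one. A κB match was found in 5.72% of the 27305 windows in the table and in 6.29% of those of genes tested. It was found in 22 of 134 windows (16.4%) of the genes with the larger rises and in 11 of 178 (6.18%) of those with the larger falls. The share was 7 of 13 (53.8%) for the NF-κB, TNF receptor and survival genes that rose and 11 of 19 (57.9%) for the chemokine and cytokine genes that rose. These sets were picked by function and by their rise, and members that did not rise were not counted. The 11 include the related genes CXCL1, CXCL2, CXCL3, CXCL5 and CXCL6, so they are not separate observations. A match is a description of the letters and not a binding site. Parts of 4 windows follow, 5′ to 3′ on the strand of the gene and upstream of its start, with each κB match in capitals.

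NFKBIA (chr14:35404790-35404869, - strand): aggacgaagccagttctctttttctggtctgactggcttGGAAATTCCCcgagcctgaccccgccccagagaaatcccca
TNFAIP3 (chr6:137867139-137867218, + strand): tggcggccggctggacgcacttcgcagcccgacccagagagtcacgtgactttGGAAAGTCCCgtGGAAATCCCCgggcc
BIRC3 (chr11:102317274-102317363, + strand): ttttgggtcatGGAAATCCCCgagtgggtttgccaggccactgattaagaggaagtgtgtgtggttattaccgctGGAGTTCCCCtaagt
UBD (chr6:29559773-29559852, - strand): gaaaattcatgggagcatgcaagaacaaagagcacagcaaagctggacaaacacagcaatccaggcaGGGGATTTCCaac

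Chemokines that attract neutrophils through the receptors CXCR1 and CXCR2 rose as a complete set. All 6 CXC chemokines tested (CXCL1, CXCL2, CXCL3, CXCL5, CXCL6 and CXCL8) rose and held, with a median log2 fold change of 4.33. Together they took 0.0193%, 0.0158%, 0.0317% and 0.112% of the scaled total in unstimulated replicates 1 to 4, and 1.49%, 1.94%, 1.79% and 2.65% with TNF. CXCL8, the gene of interleukin 8, was at 23.0, 19.7, 85.1 and 554 CPM unstimulated and 12194, 16719, 15005 and 23009 CPM with TNF (log2 fold change 6.62 ± 0.93, adjusted p = 9.86e-07). Unstimulated replicate 4 stood apart but was still below every TNF library, and without it the log2 fold change was 8.65 ± 1.03 (adjusted p = 3.61e-08).

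CXCL5 was at 1.47, 1.46, 18.3 and 38.3 CPM unstimulated and 357, 399.6, 434 and 724 CPM with TNF (log2 fold change 5.05 ± 0.53, adjusted p = 8.74e-10). CXCL6 was at 120.5, 105, 165 and 225 CPM unstimulated and 1383, 1229.9, 1020.3 and 1229.9 CPM with TNF (log2 fold change 2.98 ± 0.27, adjusted p = 1.50e-11). The former started near the floor in 2 libraries, and the latter was well above it in each control. CXCL1 was at 44.1, 29.2, 28.1 and 166 CPM unstimulated and 450.5, 489, 563 and 535 CPM with TNF (log2 fold change 2.93 ± 0.37, adjusted p = 1.24e-07). CXCL2 was at 0.490, 0, 0 and 25.3 CPM unstimulated and 72.7, 110.2, 149 and 199.8 CPM with TNF (log2 fold change 4.41 ± 0.67, adjusted p = 5.23e-06). CXCL3 was at 3.43, 2.92, 19.7 and 107 CPM unstimulated and 455, 469, 751 and 815 CPM with TNF (log2 fold change 4.25 ± 0.62, adjusted p = 1.89e-06). In all 3 the fourth control library was the highest one, and without it the log2 fold changes were 3.91 ± 0.35, 8.85 ± 0.95 and 6.23 ± 0.67, and that of CXCL5 was 6.17 ± 0.59. CXCL1, CXCL2 and CXCL3 are near-identical paralogs, so the division of reads among them is uncertain.

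These genes lie in 1 cluster on chromosome 4, and 5 of them share a stretch of letters upstream. The run GGGAATTTCCC, which holds 2 overlapping κB matches, 1 on each strand, began 79, 78, 79, 91 and 90 bases before the start of CXCL1, CXCL2, CXCL3, CXCL5 and CXCL6. The windows of CXCL1, CXCL2 and CXCL3 resemble each other along their length, as do those of CXCL5 and CXCL6, and all 5 are printed to show it. For CXCL8 no match to the κB consensus was found in the window, and the capitals there mark an AP-1 match (TGAGTCA on the opposite strand). Sites that differ from the consensus by a letter were not searched, so this does not show that CXCL8 lacks a κB site.

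CXCL1 (chr4:73869273-73869352, + strand): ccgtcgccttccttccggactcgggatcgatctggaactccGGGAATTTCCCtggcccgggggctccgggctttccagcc
CXCL2 (chr4:74099236-74099315, - strand): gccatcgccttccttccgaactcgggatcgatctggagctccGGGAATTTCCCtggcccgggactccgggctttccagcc
CXCL3 (chr4:74038730-74038809, - strand): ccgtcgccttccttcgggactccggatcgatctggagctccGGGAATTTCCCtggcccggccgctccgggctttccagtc
CXCL5 (chr4:73998718-73998797, - strand): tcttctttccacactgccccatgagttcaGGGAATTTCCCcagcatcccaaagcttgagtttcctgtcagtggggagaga
CXCL6 (chr4:73836558-73836637, + strand): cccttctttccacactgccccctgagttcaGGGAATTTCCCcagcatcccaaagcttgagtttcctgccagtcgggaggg
CXCL8 (chr4:73740389-73740468, + strand): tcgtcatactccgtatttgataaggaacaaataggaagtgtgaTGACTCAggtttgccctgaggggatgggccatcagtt

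Of 12 other chemokines tested, 6 rose and 2 fell (median 2.95), and 6 rises and 1 fall held. The monocyte attractant CCL2 was at 204, 248, 331 and 439 CPM unstimulated and 8779, 8707, 5966 and 6162 CPM with TNF (log2 fold change 4.60 ± 0.28, adjusted p = 2.58e-16). CCL7, its neighbour in the genome with a like function, was at 4.90, 2.92, 28.8 and 13.0 CPM unstimulated and 343, 318, 299 and 381 CPM with TNF (log2 fold change 4.78 ± 0.53, adjusted p = 5.11e-09). CCL11 (eotaxin), which attracts eosinophils, was at 91.6, 66.3, 64.0 and 72.4 CPM unstimulated and 502, 454, 261 and 264 CPM with TNF (log2 fold change 2.32 ± 0.31, adjusted p = 2.93e-07). Each of the 3 was higher in every TNF library, with a wider spread among the TNF libraries for CCL11. CCL20, the ligand of CCR6 on T helper 17 cells, was listed at 0 in unstimulated replicates 1 to 3 and at 2.73 CPM in the fourth, and reached 26.1, 34.5, 54.0 and 74.99 CPM with TNF (log2 fold change 6.03 ± 1.03, adjusted p = 6.38e-05). The T cell attractants CXCL10 (0, 0, 2.81 and 6.15 CPM unstimulated and 145, 158, 113 and 233 CPM with TNF; log2 fold change 6.22 ± 0.76, adjusted p = 4.10e-08) and CXCL11 (log2 fold change 4.72 ± 1.01, adjusted p = 8.70e-04), which bind CXCR3 and are best known as interferon targets, rose as well. The log2 fold change of CXCL10 was 7.48 ± 0.95 without unstimulated replicate 4, that of CXCL11 3.71 ± 1.10 without TNF replicate 4, and that of CCL7 5.62 ± 0.60 without unstimulated replicate 3. Without unstimulated replicate 3 CXCL11 had 0 counts in all remaining controls, as CCL20 had without unstimulated replicate 4. CXCL12, which retains CXCR4-bearing cells in tissue and supports stem cells, went the other way with 57.8, 31.3, 14.1 and 38.3 CPM unstimulated and 2.12, 10.3, 0.750 and 0 CPM with TNF (log2 fold change -3.59 ± 0.53, adjusted p = 2.29e-06). Its TNF libraries were all below the lowest control, and without TNF replicate 2 its log2 fold change was -5.20 ± 0.62. CXCL14 fell without holding (log2 fold change -1.54 ± 0.44, adjusted p = 0.0141), since its adjusted p was 0.0658 without TNF replicate 3, 0.0559 without unstimulated replicate 3 and 0.0529 without unstimulated replicate 4.

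Cytokines and colony-stimulating factors rose in 11 of 15 cases tested, with 0 falls, and all 11 held. The median log2 fold change was 4.18, or 3.81 with genes at 0 in the controls set to their bound. IL6 was at 4.90, 5.10, 1.41 and 26.0 CPM unstimulated and 164, 177, 186 and 212 CPM with TNF (log2 fold change 4.31 ± 0.52, adjusted p = 4.11e-08). IL1B was at 8.32, 1.46, 20.4 and 56.7 CPM unstimulated and 351, 452, 509 and 434 CPM with TNF (log2 fold change 4.34 ± 0.66, adjusted p = 4.75e-06). In both, unstimulated replicate 4 was the highest control, and the log2 fold changes without it were 5.55 ± 0.59 and 5.45 ± 0.77. IL33, the alarmin that activates innate lymphoid cells, was at 117, 88.9, 172 and 176 CPM unstimulated and 1546, 2069, 1806 and 2338 CPM with TNF (log2 fold change 3.81 ± 0.33, adjusted p = 7.31e-12). TSLP, an epithelial and stromal cytokine of type 2 immunity, was at 9.79, 18.2, 17.6 and 32.8 CPM unstimulated and 68.5, 104, 159 and 171 CPM with TNF (log2 fold change 2.69 ± 0.45, adjusted p = 2.89e-05). IL11 was at 6.86, 6.56, 4.93 and 7.51 CPM unstimulated and 85.4, 95.6, 152 and 142 CPM with TNF (log2 fold change 4.18 ± 0.48, adjusted p = 1.03e-08) and its relative LIF also rose (log2 fold change 2.76 ± 0.54, adjusted p = 2.60e-04). IL32 went from 6.37, 0.729, 2.11 and 0.683 CPM to 292, 192, 311 and 260.3 CPM (log2 fold change 6.54 ± 0.57, adjusted p = 8.72e-12), and IL24 from 0, 0, 2.81 and 4.78 CPM to 37.4, 86.1, 122 and 134 CPM (log2 fold change 5.66 ± 0.92, adjusted p = 1.83e-05). The groups did not overlap in any of these. Without unstimulated replicate 1 the log2 fold change of IL32 was 7.71 ± 0.70, and without unstimulated replicate 4 that of IL24 was 6.69 ± 1.12.

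The rest of the list was at or near 0 without TNF. IL23A, a subunit of interleukin 23, had 0 counts in all 4 unstimulated libraries and 15.5, 8.61, 32.3 and 48.2 CPM with TNF, at least 13.4-fold higher (adjusted p = 2.87e-05). CSF2, the gene of GM-CSF, was at 0, 0.729, 0 and 2.05 CPM unstimulated and 14.1, 18.9, 33.8 and 27.3 CPM with TNF, a ratio of 37.6 (95% counting interval 14.4 to 140.01) with adjusted p = 3.94e-04. CSF3, the gene of G-CSF, was at 0, 0, 0 and 1.37 CPM unstimulated and 3.53, 8.61, 7.50 and 9.64 CPM with TNF, a ratio of 23.4 (95% counting interval 6.11 to 199.8) with adjusted p = 0.00302. IL15, CSF1, IL12A and IL7 did not pass (log2 fold changes 1.05, 0.79, -0.74 and -0.97). The windows of 4 genes of these lists are printed to show how the matches differ, with the κB matches of IL6, IL32 and CXCL10 and the AP-1 match of IL11 in capitals.

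IL6 (chr7:22727080-22727159, + strand): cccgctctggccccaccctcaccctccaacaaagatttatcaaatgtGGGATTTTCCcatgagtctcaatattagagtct
IL32 (chr16:3065283-3065362, + strand): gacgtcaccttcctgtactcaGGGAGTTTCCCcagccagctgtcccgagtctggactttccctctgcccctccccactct
IL11 (chr19:55370524-55370603, - strand): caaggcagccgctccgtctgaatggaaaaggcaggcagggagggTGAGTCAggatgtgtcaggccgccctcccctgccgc
CXCL10 (chr4:76023598-76023687, - strand): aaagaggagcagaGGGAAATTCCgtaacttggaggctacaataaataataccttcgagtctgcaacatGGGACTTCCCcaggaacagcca

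**Figure D2:**
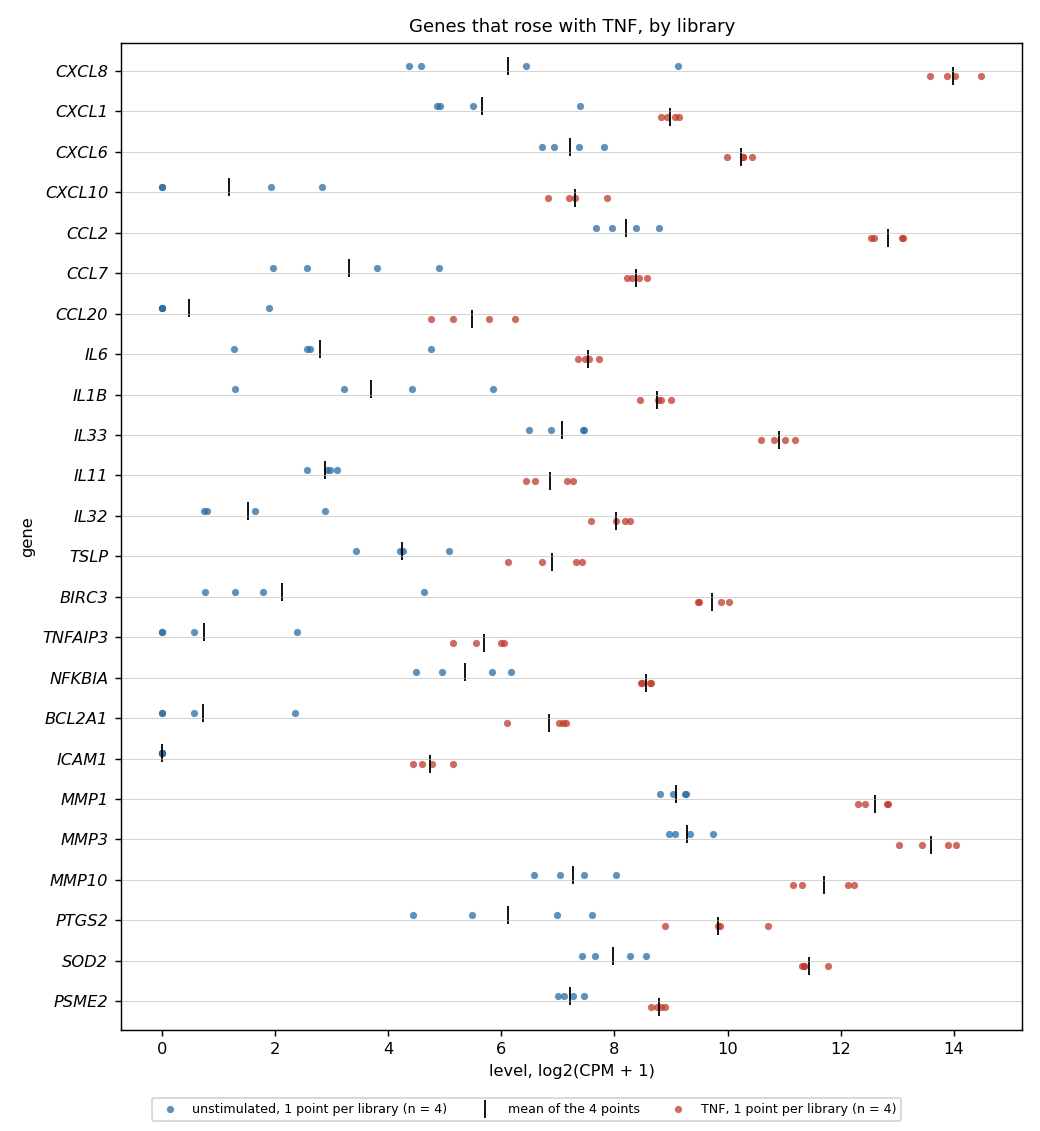
Level of 24 genes that rose, as log2(CPM + 1) on the horizontal axis, with 1 row per gene, 1 point per library (blue unstimulated, red TNF, n = 4 each) and a bar at the mean of the points. The groups did not overlap in any row, CXCL8 had its 4 TNF libraries between 12194 and 23009 CPM, and ICAM1 had 0 counts in each unstimulated library. Of all genes tested, 6.73% were higher with TNF without overlap.

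Receptors of such signals also rose in part. Of 17 cytokine receptor genes tested, 5 rose and 0 fell, with 4 held (median 0.74). IL13RA2, a decoy receptor of IL-13, was at 68.1, 62.7, 122 and 142 CPM unstimulated and 931, 1017, 1263 and 1474 CPM with TNF (log2 fold change 3.57 ± 0.46, adjusted p = 1.60e-07). IL7R was at 40.2, 37.9, 31.7 and 37.6 CPM unstimulated and 152, 140.4, 185 and 245 CPM with TNF (log2 fold change 2.29 ± 0.28, adjusted p = 3.31e-08). The interferon receptor subunits IFNAR2 (log2 fold change 2.28 ± 0.39, adjusted p = 3.44e-05) and IFNGR2 (log2 fold change 1.36 ± 0.34, adjusted p = 0.00426) rose. The interleukin 1 and oncostatin M receptor genes IL1R1 and OSMR had log2 fold changes of 0.06 and 0.27 (adjusted p = 0.947 and 0.639). In the TNF superfamily, 3 of 13 genes rose and 0 fell. TNFRSF11B, the gene of the secreted decoy receptor osteoprotegerin, was at 1334, 1398, 1769.5 and 1764 CPM unstimulated and 2850.4, 2896, 2929.7 and 3237 CPM with TNF (log2 fold change 0.93 ± 0.16, adjusted p = 5.34e-05). TNFSF15, the ligand TL1A linked to inflammatory bowel disease, was at 0, 0, 0.704 and 0 CPM unstimulated and 7.06, 8.61, 12.8 and 16.1 CPM with TNF, a ratio of 73.1 (95% counting interval 12.7 to 2928) with adjusted p = 0.00755. TNFRSF12A rose (log2 fold change 1.38 ± 0.39, adjusted p = 0.0127), with adjusted p = 0.0568 without unstimulated replicate 2 and 0.056 without unstimulated replicate 4. Of 10 adhesion and checkpoint genes only ICAM1, which holds leukocytes through their integrins, passed. It was at 0 counts in every unstimulated library and at 34.6, 20.7, 23.3 and 26.2 CPM with TNF, at least 13.4-fold higher (adjusted p = 1.05e-04). VCAM1 had a log2 fold change of 0.11 ± 0.29 (adjusted p = 0.877).

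Matrix-degrading proteases rose to high levels. The 12 tested metalloproteinases and inhibitors took 0.3% to 0.437% of the scaled total unstimulated and 1.94% to 3.18% with TNF. Of the 12, 5 rose and 1 fell, and 4 rises and the fall held. MMP3 (stromelysin 1) was at 649, 499, 534 and 861 CPM unstimulated and 11117, 8335, 15275 and 16772 CPM with TNF (log2 fold change 4.34 ± 0.36, adjusted p = 2.44e-12). MMP1 (interstitial collagenase) was at 526, 445, 604 and 616 CPM unstimulated and 5087, 5534, 7354 and 7238 CPM with TNF (log2 fold change 3.52 ± 0.28, adjusted p = 6.42e-13). Both were far above the floor in every control. MMP10 was at 131, 94.0, 175 and 259.6 CPM unstimulated and 2294, 2549, 4503 and 4796 CPM with TNF (log2 fold change 4.42 ± 0.39, adjusted p = 1.26e-11). MMP12, macrophage elastase, was at 5.88, 16.0, 2.81 and 7.51 CPM unstimulated and 133, 125, 128 and 115 CPM with TNF (log2 fold change 3.96 ± 0.53, adjusted p = 2.93e-07). In none of the 4 did the groups overlap. The gelatinase gene MMP2 had a log2 fold change of 0.20 ± 0.15 (adjusted p = 0.453). The inhibitor TIMP3 fell, from 436, 271, 122 and 159.8 CPM to 122, 67.2, 94.5 and 77.1 CPM (log2 fold change -1.46 ± 0.33, adjusted p = 0.00157), and without unstimulated replicate 1, its highest library, the log2 fold change was -1.03 ± 0.33 (adjusted p = 0.0295). TIMP1 rose (log2 fold change 0.82 ± 0.21, adjusted p = 0.00528) except where the trend with transcript length and GC content was removed (adjusted p = 0.0804). Among 13 ADAM-type proteases tested, 3 fell (2 held) and 1 rose (0 held), and only the rise had an absolute log2 fold change above 1.5. The falls that held were ADAM19 (log2 fold change -1.28 ± 0.17, adjusted p = 5.09e-07) and ADAMTS1 (log2 fold change -1.18 ± 0.19, adjusted p = 8.52e-06).

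The cathepsins and serpins split. Of 21 tested, 7 rose (6 held) and 3 fell (1 held). The plasminogen activator PLAU was at 173, 105, 134 and 124 CPM unstimulated and 336, 357, 435 and 426 CPM with TNF (log2 fold change 1.53 ± 0.22, adjusted p = 9.88e-07). Every TNF library was above every control. SERPINB2, an inhibitor of PLAU, had 0 counts in all unstimulated libraries and 29.7, 26.7, 36.0 and 38.0 CPM with TNF, at least 16.7-fold higher (adjusted p = 6.80e-05). The lysosomal proteases CTSS (log2 fold change 4.00 ± 0.75, adjusted p = 1.31e-04), CTSK (log2 fold change 0.82 ± 0.19, adjusted p = 0.00286) and CTSL (log2 fold change 0.79 ± 0.20, adjusted p = 0.0061) rose.

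Enzymes of lipid mediators, redox balance and cofactors changed as well. In the prostaglandin list 5 of 15 genes rose, 1 fell, and all 6 held. PTGS2 (cyclooxygenase 2) was at 20.6, 43.7, 126 and 193 CPM unstimulated and 477, 905, 935 and 1688 CPM with TNF (log2 fold change 3.40 ± 0.62, adjusted p = 1.07e-04, and 4.02 ± 0.71 without unstimulated replicate 4). PTGES, which makes prostaglandin E2 from its product, was at 8.81, 2.92, 4.22 and 8.88 CPM unstimulated and 41.7, 56.0, 46.5 and 78.7 CPM with TNF (log2 fold change 3.13 ± 0.54, adjusted p = 4.50e-05), and the phospholipase PLA2G4A, which frees arachidonic acid, rose too (log2 fold change 1.76 ± 0.40, adjusted p = 0.00148). PTGIS, the prostacyclin synthase, was at 6.86, 7.29, 0 and 3.42 CPM unstimulated and had 0 counts in every TNF library, at least 2.05-fold lower (adjusted p = 0.00138). One unstimulated library was also at 0, so the groups overlapped. The genes that rose thus include each step from membrane lipid to prostaglandin E2, and the gene that fell makes prostacyclin.

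Mitochondrial superoxide dismutase SOD2 was at 171, 202, 308 and 375 CPM unstimulated and 2612, 3520.0, 2549 and 2601 CPM with TNF (log2 fold change 3.42 ± 0.29, adjusted p = 5.88e-12). It was 1 of 3 risen genes among 23 antioxidant and nitric oxide genes, 2 of which fell, while SOD1 had a log2 fold change of 0.18 ± 0.16 (adjusted p = 0.552). GCH1, the first enzyme of tetrahydrobiopterin synthesis, was at 0, 0, 0 and 1.37 CPM unstimulated and 11.3, 12.9, 13.5 and 28.9 CPM with TNF, a ratio of 56.2 (95% counting interval 15.2 to 469.9) with adjusted p = 0.00138. NAMPT, which makes the precursor of NAD, was at 125, 192, 211 and 313 CPM unstimulated and 474, 864, 915 and 1172 CPM with TNF (log2 fold change 2.03 ± 0.34, adjusted p = 3.16e-05), and NNMT, which consumes nicotinamide, fell (log2 fold change -0.72 ± 0.17, adjusted p = 0.00299). Tryptophan-degrading TDO2 was at 0.490, 1.46, 0 and 0 CPM unstimulated and 1.41, 16.4, 16.5 and 21.4 CPM with TNF, a ratio of 30.2 (95% counting interval 9.97 to 149) with adjusted p = 0.00492. The zinc and iron importer SLC39A14 (log2 fold change 2.15 ± 0.30, adjusted p = 9.88e-07) and the metallothionein MT2A (log2 fold change 1.25 ± 0.20, adjusted p = 9.18e-06) rose. Reads of metallothionein genes can be divided uncertainly among near copies.

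Genes of antigen presentation by MHC class I rose, while most interferon-linked genes did not pass. Of 21 class I genes tested, 9 rose (6 held) and 0 fell, with a median of 1.07. B2M, the shared light chain, was at 2670.1, 2403, 2481 and 2672 CPM unstimulated and 3953, 4112, 4509 and 5287 CPM with TNF (log2 fold change 0.80 ± 0.13, adjusted p = 8.54e-06). The proteasome activator subunits PSME1 (log2 fold change 1.17 ± 0.18, adjusted p = 4.69e-06) and PSME2 (153, 175, 127 and 137 CPM unstimulated and 454, 428, 399.9 and 477 CPM with TNF; log2 fold change 1.57 ± 0.15, adjusted p = 6.61e-11) rose, and no TNF library was as low as any control in either gene or in B2M. HLA-B (log2 fold change 1.43 ± 0.20, adjusted p = 6.06e-07) and HLA-C (log2 fold change 1.14 ± 0.24, adjusted p = 6.51e-04) rose as well, with reads that may be shared among HLA genes. UBD, a ubiquitin-like modifier that targets proteins to the proteasome, had 0 counts in each unstimulated library and 34.6, 50.8, 47.3 and 36.4 CPM with TNF, at least 21.6-fold higher (adjusted p = 1.83e-05). UBD shares 2259 bases with OR2I1P on the opposite strand of chromosome 6, which also went from 0 to 20.5, 31.9, 36.8 and 50.9 CPM. Since the use of strand in counting is not given, the reads of the 2 genes cannot be told apart.

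Of 26 proteasome core genes, 15 rose (6 held) and 0 fell (9 rose in the fit of the 8 libraries alone), with a median of 0.61, and the summed level went from 7110 to 7997 CPM to 10254 to 11864 CPM. PSMA6 was at 209, 236, 214 and 208 CPM unstimulated and 459, 419, 545 and 500.3 CPM with TNF (log2 fold change 1.15 ± 0.15, adjusted p = 3.25e-07), and PSMB7 (log2 fold change 0.97 ± 0.20, adjusted p = 4.93e-04) and PSMC2 (log2 fold change 0.96 ± 0.22, adjusted p = 0.00211) had log2 fold changes nearest to it. By contrast, 3 of 54 interferon-linked genes rose (1 held) and 4 fell (2 held). Their median was 0.19, or 0.29 with genes at 0 counts in 1 group set to their bound. Their summed level was 2248 to 2941 CPM unstimulated and 2318 to 2837 CPM with TNF, so the ranges overlapped. ISG20, a ribonuclease, rose (log2 fold change 2.20 ± 0.43, adjusted p = 2.31e-04), while APOL6 (log2 fold change -1.80 ± 0.32, adjusted p = 5.62e-05) and IFIT5 (log2 fold change -1.12 ± 0.28, adjusted p = 0.00528) fell. The interferon-linked transcription factor gene IRF1 had a log2 fold change of 1.08 ± 0.52 (adjusted p = 0.194). Among all 54 genes 17 had an unadjusted p under 0.05. Of 7 class II genes tested, the only one that passed was the protease gene CTSS, given above.

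The endoplasmic reticulum and amino acid list divided by function. Of 36 genes tested, 7 rose (5 held) and 9 fell (7 held). The genes that rose and held encode helpers of protein folding in the endoplasmic reticulum: DNAJB9 at 128, 136, 161 and 179 CPM unstimulated and 298, 459, 466 and 566 CPM with TNF (log2 fold change 1.57 ± 0.23, adjusted p = 2.15e-06), SDF2L1 (log2 fold change 2.15 ± 0.41, adjusted p = 2.01e-04), MANF (log2 fold change 1.35 ± 0.25, adjusted p = 1.30e-04), DNAJB11 (log2 fold change 0.84 ± 0.19, adjusted p = 0.00191) and DNAJC3 (log2 fold change 0.72 ± 0.19, adjusted p = 0.0085). Those that fell are mostly known targets of the transcription factor ATF4, which responds to amino acid shortage. PSAT1, of serine synthesis, was at 206, 195, 86.5 and 113 CPM unstimulated and 7.77, 16.4, 8.25 and 8.03 CPM with TNF (log2 fold change -3.92 ± 0.36, adjusted p = 4.15e-11). ASNS, asparagine synthetase, was at 126, 154, 102 and 122 CPM unstimulated and 22.6, 14.6, 18.8 and 11.2 CPM with TNF (log2 fold change -2.91 ± 0.32, adjusted p = 4.16e-09). Mitochondrial one-carbon enzyme MTHFD2 was at 179, 247, 106 and 149.6 CPM unstimulated and 62.1, 60.3, 52.5 and 40.2 CPM with TNF (log2 fold change -1.67 ± 0.22, adjusted p = 2.75e-07). These 3 genes were separated between groups by a wide gap, and the transporters SLC7A11 (log2 fold change -0.89 ± 0.21, adjusted p = 0.0022) and SLC38A2 (log2 fold change -0.80 ± 0.18, adjusted p = 0.00218) and the transcription factor DDIT3 (log2 fold change -0.81 ± 0.20, adjusted p = 0.00377) fell by less. Among 19 cytosolic tRNA synthetases, a list added after seeing the data, 7 fell (3 held) and 0 rose, and EPRS1 (log2 fold change -0.81 ± 0.17, adjusted p = 8.26e-04), GARS1 (log2 fold change -1.37 ± 0.23, adjusted p = 2.89e-05) and IARS1 (log2 fold change -0.74 ± 0.15, adjusted p = 5.24e-04) were those that held.

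Falls began with the structural matrix. In bulk RNA fewer cells of a type and less RNA per cell cannot be told apart. Among 19 collagen genes tested, 9 fell (6 held) and 2 rose (1 held), with a median of -0.46. Collagens took 1.09% to 2.08% of the scaled total unstimulated and 0.452% to 0.956% with TNF. COL1A1 was at 5404, 13339, 13811 and 10008 CPM unstimulated and 4122, 5734, 2321 and 1814 CPM with TNF (log2 fold change -1.61 ± 0.36, adjusted p = 0.00165). Its groups overlapped, since unstimulated replicate 1 was below TNF replicate 2, and without the former the log2 fold change was -1.82 ± 0.37 (adjusted p = 0.000471). COL1A2 was at 1796, 2463, 2202 and 1964 CPM unstimulated and 1078, 1212, 859 and 798 CPM with TNF (log2 fold change -1.09 ± 0.20, adjusted p = 1.21e-04). COL3A1 was at 2050.2, 2656, 3113 and 2553 CPM unstimulated and 1120.5, 1315, 861 and 839 CPM with TNF (log2 fold change -1.33 ± 0.19, adjusted p = 1.31e-06). Both genes had every TNF library below every control. COL14A1, a collagen on the surface of fibrils, fell (log2 fold change -1.51 ± 0.21, adjusted p = 1.24e-06), as did COL5A2 (log2 fold change -0.78 ± 0.20, adjusted p = 0.00564) and the basement membrane collagen COL4A1 (log2 fold change -0.76 ± 0.20, adjusted p = 0.00727). COL8A1, a short-chain collagen, rose instead, from 22.5, 38.6, 33.8 and 41.7 CPM to 124, 223, 209 and 170.3 CPM (log2 fold change 2.42 ± 0.28, adjusted p = 9.59e-09). LOX, which cross-links collagen, was at 257, 398, 304 and 268 CPM unstimulated and 126, 157, 60.8 and 104 CPM with TNF (log2 fold change -1.46 ± 0.28, adjusted p = 2.15e-04). Of the 18 processing enzymes tested, LOX alone fell and P3H2 alone rose (log2 fold change 1.57 ± 0.42, adjusted p = 0.00855).

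Elastic fibre and matricellular genes fell in 9 of 23 cases (6 held), with 0 rises and a median of -0.73. Fibronectin, FN1, was at 1391, 1419, 972 and 1024 CPM unstimulated and 501, 496, 473 and 489 CPM with TNF (log2 fold change -1.30 ± 0.20, adjusted p = 8.60e-06). The TNF libraries lay within a narrow range that was below every control. Periostin, POSTN, was at 280.1, 465, 364 and 355 CPM unstimulated and 191, 235, 146 and 129 CPM with TNF (log2 fold change -1.06 ± 0.20, adjusted p = 1.17e-04). EFEMP1 was at 371, 314, 216 and 191 CPM unstimulated and 102, 74.1, 85.5 and 69.1 CPM with TNF (log2 fold change -1.73 ± 0.28, adjusted p = 1.93e-05), and the fibulins FBLN5 (log2 fold change -1.74 ± 0.34, adjusted p = 2.24e-04) and FBLN1 (log2 fold change -1.001 ± 0.21, adjusted p = 4.97e-04) and the microfibril gene FBN1 (log2 fold change -0.70 ± 0.16, adjusted p = 0.00142) fell. The proteoglycan ASPN (asporin) was at 165, 204, 71.1 and 102 CPM unstimulated and 16.9, 0, 4.50 and 2.14 CPM with TNF (log2 fold change -4.50 ± 0.57, adjusted p = 8.18e-08, or -5.82 ± 0.68 without TNF replicate 1), while DCN (decorin) and LUM (lumican) had log2 fold changes of -0.18 ± 0.14 and 0.24 ± 0.15 (adjusted p = 0.474 and 0.343). Within the same list of 12 proteoglycan and hyaluronan genes, 3 rose and 2 fell, and all 5 held. Hyaluronan synthase HAS2 was at 265, 348, 497 and 369.5 CPM unstimulated and 751, 868, 976 and 1022 CPM with TNF (log2 fold change 1.29 ± 0.24, adjusted p = 1.54e-04), the hyaluronan-binding TNFAIP6 at 56.8, 53.2, 138 and 111 CPM unstimulated and 243, 385, 425 and 528 CPM with TNF (log2 fold change 2.14 ± 0.32, adjusted p = 3.73e-06), and the hyaluronan-degrading CEMIP rose too (log2 fold change 1.08 ± 0.28, adjusted p = 0.00535). The 2 genes of this list that fell were ASPN and VCAN.

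Cell-matrix contacts followed. Of 21 integrin, laminin and nidogen genes, 9 fell (6 held) and 1 rose and held (median -0.62). Laminin chain LAMA4 was at 226, 235, 154 and 137 CPM unstimulated and 32.5, 33.6, 43.5 and 25.2 CPM with TNF (log2 fold change -2.49 ± 0.25, adjusted p = 2.57e-10). LAMB1 was at 272, 331, 292 and 279 CPM unstimulated and 104, 136, 114 and 73.4 CPM with TNF (log2 fold change -1.46 ± 0.18, adjusted p = 4.15e-08). Both chains form laminins of basement membranes. ITGA1, a collagen-binding integrin subunit, was at 549, 742, 421 and 590.2 CPM unstimulated and 262, 236, 173 and 187 CPM with TNF (log2 fold change -1.42 ± 0.20, adjusted p = 7.13e-07). ITGA2, which also binds collagen, was at 42.6, 59.8, 81.6 and 114 CPM unstimulated and 187, 211, 238 and 295 CPM with TNF (log2 fold change 1.65 ± 0.29, adjusted p = 4.30e-05). The 2 integrin genes moved in opposite directions, and the groups did not overlap in any of these 4 genes. ITGA4 (log2 fold change -2.90 ± 0.49, adjusted p = 2.81e-05), ITGA8 (log2 fold change -1.89 ± 0.46, adjusted p = 0.00337) and NID1 (log2 fold change -1.04 ± 0.23, adjusted p = 0.00112) also fell, and the common β1 subunit gene ITGB1 had a log2 fold change of -0.25 ± 0.12 (adjusted p = 0.208).

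Contractile and smooth muscle genes fell in 9 of 29 cases (6 held), with 0 rises and a median of -0.39. ACTA2, smooth muscle actin and a marker of myofibroblasts, was at 853, 636, 254 and 354 CPM unstimulated and 266, 203, 133 and 91.6 CPM with TNF (log2 fold change -1.60 ± 0.38, adjusted p = 0.00292). Its groups overlapped by 1 library on each side, and without unstimulated replicate 1, its highest library, the log2 fold change was -1.26 ± 0.39 (adjusted p = 0.0255). CALD1, caldesmon, was at 1691, 2084, 1578 and 1807 CPM unstimulated and 1147, 1065, 943 and 1058 CPM with TNF (log2 fold change -0.76 ± 0.14, adjusted p = 1.41e-04), and the actin-bundling PALLD (log2 fold change -1.01 ± 0.24, adjusted p = 0.0033), LPP (log2 fold change -1.12 ± 0.23, adjusted p = 3.68e-04) and CAV1 (log2 fold change -0.85 ± 0.17, adjusted p = 3.56e-04) fell. PLN, the phospholamban of muscle calcium stores, was at 9.30, 10.9, 9.85 and 10.2 CPM unstimulated and 1.41, 0, 0 and 0 CPM with TNF, and the ratio of unstimulated to TNF counts was 28.9 (95% counting interval 7.67 to 244) with adjusted p = 2.73e-04. Much of the machinery did not pass: TPM1 and MYL9 had log2 fold changes of -0.31 ± 0.16 and -0.18 ± 0.30 (adjusted p = 0.238 and 0.795). Without unstimulated replicate 1, 7 genes of the list fell in place of 9. THY1, the surface marker CD90, fell from 181, 82.4, 64.7 and 63.5 CPM to 39.5, 32.7, 21.0 and 22.0 CPM (log2 fold change -1.78 ± 0.35, adjusted p = 2.73e-04), and without that library its log2 fold change was -1.29 ± 0.34 (adjusted p = 0.00828).

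**Figure D3:**
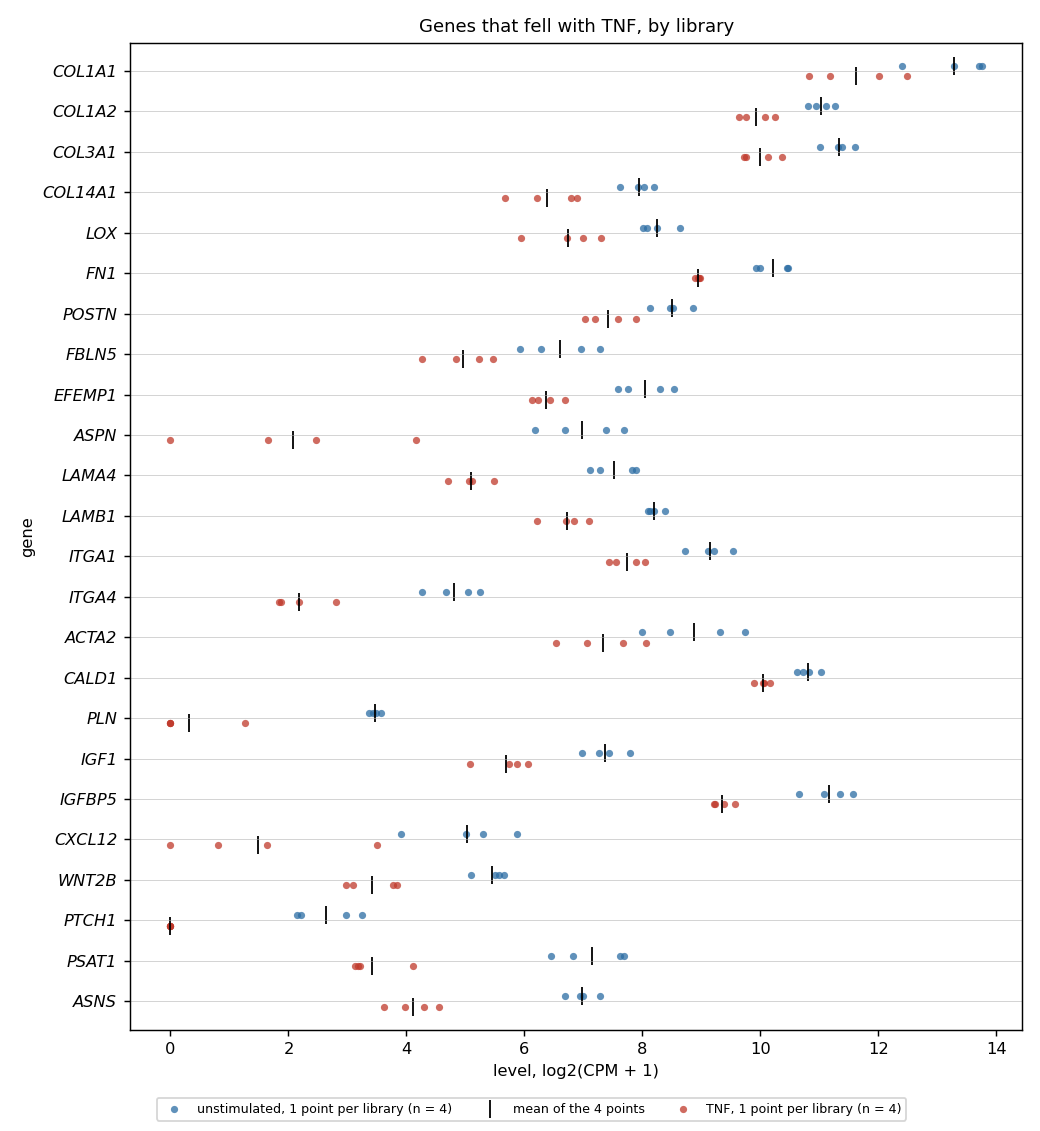
Level of 24 genes that fell, as log2(CPM + 1) on the horizontal axis, with 1 row per gene, 1 point per library (blue unstimulated, red TNF, n = 4 each) and a bar at the mean of the points. The groups overlap for COL1A1 and ACTA2 and are apart for the other genes, and PTCH1 had 0 counts in all 4 TNF libraries. Of all genes tested, 7.36% were lower with TNF without overlap.

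Signals that guide fibroblasts and epithelium changed in both directions. Of 17 TGF-β genes, 2 rose and 3 fell. INHBA, which encodes the activin A subunit, was at 44.6, 62.7, 59.1 and 66.3 CPM unstimulated and 468, 548, 684 and 981 CPM with TNF (log2 fold change 3.53 ± 0.28, adjusted p = 6.42e-13). The TGF-β target TGFBI was at 1265, 1218, 1099 and 1083 CPM unstimulated and 486, 479.7, 419 and 369 CPM with TNF (log2 fold change -1.41 ± 0.14, adjusted p = 1.00e-10). Each pair of groups was apart. TGFB3 had 0 counts in all unstimulated libraries and 4.94, 4.31, 7.50 and 5.36 CPM with TNF, at least 2.83-fold higher (adjusted p = 0.0036), and TGFB2 fell, with a ratio of unstimulated to TNF counts of 13.9 (95% counting interval 5.72 to 44.2) (adjusted p = 0.00198). In the BMP list 5 of 26 genes rose (2 held) and 4 fell (2 held), with a median of -0.29, or -0.19 with genes at 0 with TNF set to their bound. BMP2 was at 16.2, 42.3, 55.6 and 36.2 CPM unstimulated and 132, 172, 179 and 238 CPM with TNF (log2 fold change 2.28 ± 0.35, adjusted p = 4.50e-06) and the target gene ID3 rose (log2 fold change 1.31 ± 0.29, adjusted p = 0.00125), while the receptor BMPR2 (log2 fold change -0.999 ± 0.19, adjusted p = 1.25e-04) and SMAD9 (log2 fold change -1.76 ± 0.28, adjusted p = 1.32e-05) fell.

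Of 17 Wnt genes 6 fell (2 held) and 1 rose (median -0.76). RSPO3, a secreted amplifier of Wnt signals that sustains intestinal stem cells, was at 0.979, 0, 0 and 6.15 CPM unstimulated and 71.3, 38.8, 57.0 and 42.3 CPM with TNF (log2 fold change 4.83 ± 0.74, adjusted p = 5.47e-06), with 6.76 ± 0.93 without unstimulated replicate 4. WNT2B was at 49.5, 46.7, 33.1 and 44.4 CPM unstimulated and 12.7, 6.89, 7.50 and 13.4 CPM with TNF (log2 fold change -2.07 ± 0.37, adjusted p = 7.49e-05) and the receptor FZD4 also fell (log2 fold change -2.47 ± 0.44, adjusted p = 7.63e-05). PTCH1, the hedgehog receptor and a target of that pathway, was at 6.86, 3.65, 8.44 and 3.42 CPM unstimulated and had 0 counts in each TNF library, at least 2.61-fold lower (adjusted p = 0.00105). A ligand that amplifies the Wnt pathway was therefore higher, and a Wnt ligand and receptor were lower.

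Among 28 growth factors 5 rose (3 held) and 3 fell (1 held). FGF2 was at 81.8, 114, 193 and 211 CPM unstimulated and 319.9, 452, 472 and 809.9 CPM with TNF (log2 fold change 1.78 ± 0.30, adjusted p = 2.57e-05). The EGF receptor ligand AREG (amphiregulin) was at 4.41, 5.83, 39.4 and 35.5 CPM unstimulated and 123, 181, 274 and 287 CPM with TNF (log2 fold change 3.37 ± 0.69, adjusted p = 4.45e-04). EREG (epiregulin), of the same family, was at 0 counts in all unstimulated libraries and at 2.82, 7.75, 15.8 and 19.3 CPM with TNF, at least 5.84-fold higher (adjusted p = 7.75e-04). PTN, pleiotrophin, fell (log2 fold change -1.13 ± 0.19, adjusted p = 1.93e-05). The semaphorin and VEGF co-receptors NRP2 (21.5, 20.4, 22.5 and 19.1 CPM unstimulated and 115, 72.3, 134 and 84.6 CPM with TNF; log2 fold change 2.28 ± 0.30, adjusted p = 2.87e-07) and NRP1 (log2 fold change 1.35 ± 0.29, adjusted p = 8.74e-04) rose. In the IGF list 4 of 10 genes fell (3 held) and 0 rose, with IGF1 at 172, 125, 153 and 221 CPM unstimulated and 65.7, 32.7, 57.8 and 52.5 CPM with TNF (log2 fold change -1.68 ± 0.23, adjusted p = 4.82e-07). IGFBP5 was at 1612, 2156, 3033 and 2601 CPM unstimulated and 592, 754, 599 and 664 CPM with TNF (log2 fold change -1.85 ± 0.22, adjusted p = 2.78e-08). Neither gene had a TNF library within the range of the controls.

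No cell cycle gene passed. With edgeR the count was 0 of 38, 4 had an unadjusted p under 0.05, and their median log2 fold change was 0.15. DESeq2 also gave 0, and the fits that left out 1 library gave 0 to 1. Both groups had been kept without serum.

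Other changes lay outside the lists or on lists not described above. SPP1 (osteopontin) and GRB14 (an adaptor of growth factor receptors) had 0 counts in all unstimulated libraries and were at 7.77, 14.6, 15.0 and 2.14 CPM and 9.18, 20.7, 5.25 and 10.2 CPM with TNF, at least 5.06-fold and 5.79-fold higher (adjusted p = 0.0031 and 0.00136). TFPI2, an inhibitor of serine proteases, was at 338, 367, 1193 and 1156 CPM unstimulated and 2296, 3356, 2809.7 and 3880.3 CPM with TNF (log2 fold change 2.02 ± 0.41, adjusted p = 4.79e-04). DIO2, which activates thyroid hormone, was at 405, 537, 671 and 594 CPM unstimulated and 1318, 1543, 1035 and 689 CPM with TNF (log2 fold change 1.05 ± 0.26, adjusted p = 0.00377). ALDH1A1, which makes retinoic acid, fell from 89.6, 178, 55.6 and 39.6 CPM to 5.65, 11.2, 1.5005 and 0.536 CPM (log2 fold change -4.36 ± 0.53, adjusted p = 4.28e-08, or -5.15 ± 0.61 without TNF replicate 2). SHISA3 fell from 32.8, 32.8, 51.4 and 38.9 CPM to 2.82, 1.72, 1.5005 and 0 CPM (log2 fold change -4.70 ± 0.57, adjusted p = 4.15e-08), and the transcription factor MAF from 49.5, 114, 100.6 and 73.1 CPM to 7.77, 10.3, 12.0 and 10.2 CPM (log2 fold change -3.05 ± 0.34, adjusted p = 4.56e-09). ADH1B, an alcohol dehydrogenase on the list of steady-state fibroblast markers, was at 27.4, 10.9, 12.7 and 13.7 CPM unstimulated and 0, 0, 1.5005 and 0 CPM with TNF, a ratio of unstimulated to TNF counts of 49.98 (95% counting interval 13.5 to 418) (adjusted p = 1.74e-04). PDE1A, which degrades cyclic nucleotides, was at 20.1, 20.4, 12.0 and 12.3 CPM unstimulated and at 0 counts in every TNF library, at least 7.56-fold lower (adjusted p = 1.00e-04). PDE5A (log2 fold change -1.59 ± 0.33, adjusted p = 6.54e-04) and the G protein regulator RGS2 (log2 fold change -1.47 ± 0.20, adjusted p = 5.14e-07) fell with it, so that 3 of 17 cyclic nucleotide genes fell, 0 rose, and all 3 held.

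**Figure D4:**
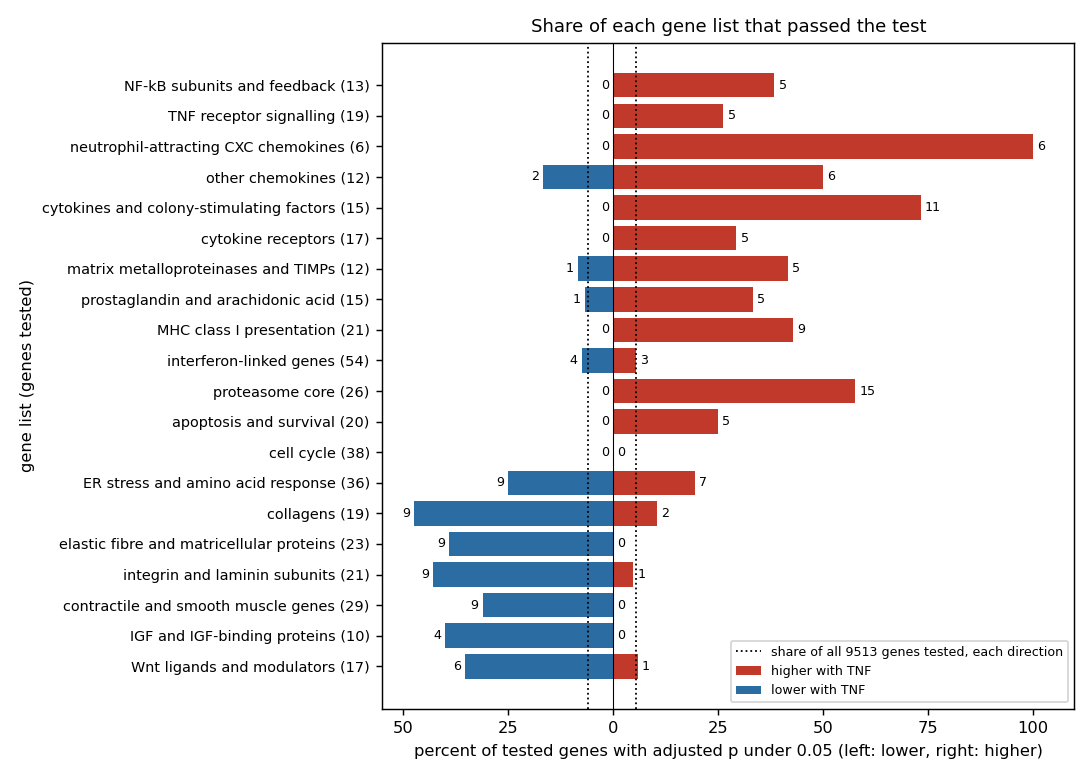
Percent of the tested genes of each list that rose (red, to the right) or fell (blue, to the left) with TNF at an adjusted p under 0.05, with the number of genes at each bar's end and the number tested beside the list name. Dotted lines mark 5.37% and 6.09%, the shares of all 9513 genes tested. All 6 neutrophil-attracting chemokines and 11 of 15 cytokines rose, while elastic fibre and contractile genes had 9 falls each and 0 rises.

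Small shifts were found in 2 housekeeping lists added after seeing the data. Of 83 ribosomal protein genes 14 rose (2 held) and 0 fell (median 0.22), and of 78 respiratory chain genes 14 rose (4 held) and 0 fell (median 0.30). Genes that rose had a median transcript length of 2440 bases and those that fell 5187 bases, against 4034.5 bases for genes that did not pass. With the trend with length and GC content removed, 483 genes were higher and 534 lower, and of the ribosomal genes 7 rose and 6 fell and of the respiratory genes 8 rose and 0 fell. In the fit of the 8 libraries alone 3 ribosomal and 4 respiratory genes rose, and without TNF replicate 1 the counts were 6 and 5. Falls among the ribosomal genes thus appeared once the trend was removed.

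TNF was set against IL-1β because both act through NF-κB, and the direct contrast shows where the response to TNF differed. The doses in the sample labels were 10 ng/ml and 0.1 ng/ml, and a lower IL-1β dose also stands in the study's text, so a difference cannot be assigned to the cytokine apart from its dose. At an adjusted p under 0.05, 43 genes (0.452%) were higher and 66 (0.694%) lower with TNF (edgeR's quasi-likelihood test). Each gene named as higher or lower below held in 14 further fits of this contrast unless its exception is given. TSLP was at 126 ± 47.9 CPM (SD, n = 4) with TNF and 7.17 ± 1.59 CPM with IL-1β, a log2 difference of 4.12 ± 0.50 (adjusted p = 5.28e-07). The value with IL-1β was below the unstimulated 19.6 ± 9.59 CPM. IL32 was at 264 ± 52.2 and 54.8 ± 13.8 CPM (2.26 ± 0.43, adjusted p = 0.00156), and CCL11 at 370.1 ± 126 and 114 ± 37.1 CPM (1.69 ± 0.30, adjusted p = 6.19e-04). INMT, a methyltransferase, was higher with TNF than with IL-1β, at 59.5 ± 13.4 CPM unstimulated, 29.2 ± 10.0 CPM with TNF and 4.78 ± 3.33 CPM with IL-1β (2.55 ± 0.34, adjusted p = 3.69e-06). Its fall with TNF against the unstimulated cells passed the test but not without TNF replicate 4 (adjusted p = 0.0522).

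The neutrophil chemokines showed the reverse order. Of the 6 tested, 4 were lower with TNF and 0 higher (median log2 difference -2.58). CXCL1 was at 509 ± 49.5 CPM with TNF and 6853 ± 376 CPM with IL-1β (-3.75 ± 0.38, adjusted p = 4.31e-09), and CXCL6 at 1216 ± 149 and 7216 ± 1572 CPM (-2.57 ± 0.26, adjusted p = 4.31e-09). CXCL3 differed by -2.58 ± 0.55 (adjusted p = 0.00647) and CXCL2 by -2.89 ± 0.53 (adjusted p = 0.00117, or 0.13 with DESeq2). CXCL8 was at 16732 ± 4581 and 19447 ± 3449 CPM, a log2 difference of -0.22 ± 0.72 (adjusted p = 0.944) that did not pass, and CXCL5 missed the threshold with -1.51 ± 0.42 (adjusted p = 0.0584). CSF3 was at 7.32 ± 2.67 CPM with TNF and 123 ± 35.7 CPM with IL-1β (-4.05 ± 0.66, adjusted p = 3.20e-04). The NF-κB cofactor gene NFKBIZ was at 22.7 ± 6.76 and 88.7 ± 12.6 CPM (-1.96 ± 0.34, adjusted p = 6.09e-04).

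Some differences passed without holding. MMP1 (0.95 ± 0.25, adjusted p = 0.0455) and CXCL10 (1.99 ± 0.52, adjusted p = 0.0407) were higher with TNF and IL6 was lower (-1.75 ± 0.42, adjusted p = 0.0223), in 7, 6 and 8 of the 14 further fits. For other products the difference did not pass. The log2 differences of CCL2, IL33, IL11 and MMP3 were 0.33 ± 0.24, 0.08 ± 0.29, 0.57 ± 0.39 and 0.10 ± 0.31 (adjusted p = 0.626, 0.946, 0.592 and 0.937), which does not show equal levels at these doses. Among genes that fell with TNF, MAF (-2.11 ± 0.34, adjusted p = 1.34e-04), SHISA3 (-3.25 ± 0.59, adjusted p = 9.16e-04) and ITGA1 (-0.99 ± 0.20, adjusted p = 0.00278) were lower with TNF than with IL-1β. DIO2 was at 1146 ± 369 CPM with TNF, 4544 ± 276 CPM with IL-1β and 552 ± 112 CPM unstimulated (-1.99 ± 0.26, adjusted p = 3.69e-06).

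**Figure D5:**
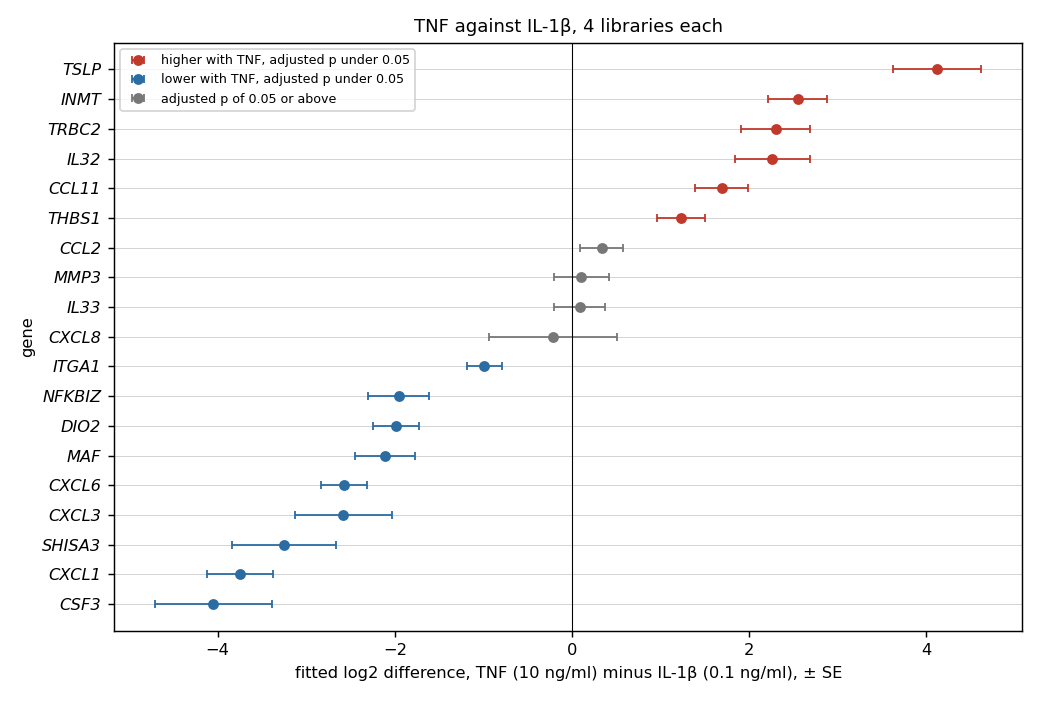
Fitted log2 difference between TNF at 10 ng/ml and IL-1β at 0.1 ng/ml (doses of the sample labels) for 19 genes (horizontal axis, points with bars of 1 SE, n = 4 libraries per group). Red points were higher and blue points lower with TNF at an adjusted p under 0.05, grey points did not pass, and the difference runs from 4.12 ± 0.50 for TSLP to -4.05 ± 0.66 for CSF3.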

How the data were processed

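Bulk RNA-seq libraries of Ccd-18Co cells were prepared with the NEBNext Ultra II RNA kit and sequenced on a NovaSeq instrument. The authors checked the reads with FastQC 0.11.9 and MultiQC 1.14 and quantified them with kallisto 0.48.0, per the submitters' processing notes, which name hg38. The deposited table holds estimated counts for 40663 gene symbols, 16928 of them at 0 in all libraries and 5.725% of the values not whole, and every column belonged to a sample. The release of the transcriptome, how transcripts were joined to symbols and the use of strand are not given in the sources used here, and multi-mapping reads are divided by the model of kallisto, which affects paralogs.

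Groups came from the sample titles. Estimated counts were rounded to whole numbers, filtered by filterByExpr on the groups and scaled with trimmed means of M values, and all 44 libraries of 11 groups were fitted together with edgeR 4.0.16 (quasi-likelihood test, R 4.3.3), with contrasts of TNF against unstimulated and against IL-1β and Benjamini-Hochberg adjustment over all genes tested. Values after ± are standard errors of log2 fold changes unless marked SD. CPM values use the same scaling, and counting intervals are exact at 95%. Pairs of replicates differed by more than sampling noise (chi-square per degree of freedom 5.57 to 25.2 over 12 pairs), so all were kept as separate samples. The common biological coefficient of variation was 0.331. The fit was tested on simulated data with known fold changes.

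The alternatives were DESeq2 size factors, the DESeq2 1.42.0 Wald test (the study's tool), other count filters, the 8 libraries alone, a replicate block, other fold-change thresholds, leaving out each replicate, and removal of a trend with transcript length and GC content, which was chosen after seeing the data. The genes named were any tested member of the gene lists, the 20 largest rises and 20 largest falls past both thresholds with groups that do not overlap and a mean log2 CPM of at least 1, and 10 genes in each direction between TNF and IL-1β by the same conditions; CXCL14, PTGIS and other named genes whose groups overlap are list members. The members and lists were chosen with earlier results of these data known. Lengths, GC content and overlaps were taken from GENCODE v44 on GRCh38, which matched 99.77% of genes tested, and sequences from RefSeq on GRCh38.p14. The κB motif was searched by its consensus, the AP-1 motif as TGAGTCA or TGACTCA. Columns of other cytokine stimulations entered only the fit. Of some list members no result is reported here.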

Additional observations from a re-analysis of the deposited data

Results flagged for a closer look

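The 4 libraries of each of the 2 groups were searched, for the total count and for the log2 CPM of each of 195 named genes (KRT18 not among them), for a library whose gap to its nearest neighbour exceeded Dixon's 95% critical value as a share of the range. This was met in 21 sets, and chance alone marks about 1 in 20. All values are CPM, and no explanation was tested.

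Among unstimulated libraries, replicate 4 stood above the other replicates for CCL20 (2.73), CSF3 (1.37), GCH1 (1.37) and CXCL2 (25.3) and lay apart for MANF (32.1). Replicate 3 lay apart for CXCL11 (4.22), TGFB2 (23.9) and TNFSF15 (0.704), replicate 1 for SLC38A2 (667), TNFRSF12A (64.1) and H2AC19 (15.7), and replicate 2 for ID3 (53.2). The values of CCL20, CSF3, GCH1, CXCL11 and TNFSF15 rest on 1 library with any count.

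Among TNF libraries, replicate 1 lay apart for BCL2A1 (67.8), PLN (1.41) and TDO2 (1.41), replicate 2 for CTSK (249), PSAT1 (16.4) and SOD2 (3520.0), replicate 3 for ADH1B (1.501) and replicate 4 for BMPR2 (169) and CFLAR (75.5). PLN and ADH1B had 0 counts in their other TNF libraries, and the value of TDO2 in TNF replicate 1 was below the floor of that library (2.12 CPM).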

How the results depend on the processing

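The count of genes past both thresholds was 399 and lay between 306 and 443 under other scalings, tests, filters and the fit of the 8 libraries alone, and was 377 with the length and GC trend removed, an alternative chosen after seeing the data. An absolute log2 fold change above 1 gave 661 genes (273 higher and 388 lower), and no fold threshold 1090 (511 and 579), both looser by construction. Leaving out each replicate gave 317 to 471 genes past both thresholds (140 to 240 higher, 177 to 231 lower) and 362 to 565 higher and 417 to 638 lower at the adjusted p alone, the lowest without unstimulated replicate 2 and the highest without unstimulated replicate 1. The replicate numbers were not treated as pairs. Over all genes tested, correlations of TNF and unstimulated deviations were 0.0617, 0.0288, -0.0865 and 0.0401 for numbers 1 to 4. TNF replicates 1 and 4 correlated best with the unstimulated library of their own number, and TNF replicates 2 and 3 with another one. Libraries of the same number stood out together in the chemokine, cytokine and contractile genes but not in the collagens that fell, as given above. These values do not settle whether the samples were paired. With the replicate block the count was 413 in the fit of all libraries (182 higher, 231 lower) and 272 in the fit of 8 (139 and 133, with 282 and 293 at the adjusted p alone). In the latter fit some named genes that had held did not pass (adjusted p = 0.0549 to 0.0843, quasi-likelihood test). They were COL4A1, CTSL, DDIT3, DNAJC3, DUSP10, EPRS1, FBN1, FZD4, IARS1, IFIT5, IFNGR2 and ISG20.

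For TNF against IL-1β, 35 genes passed both thresholds (1091 had an unadjusted p under 0.05). The count was 65 at a log2 difference above 1, 109 with no threshold and 24 to 33 without 1 replicate. At the adjusted p alone 43 genes were higher and 66 lower, against 76 and 100 with DESeq2, 18 to 40 and 35 to 63 without 1 replicate (the lowest without IL-1β replicate 2), and 78 and 149 with all genes of any count, where 78 passed both thresholds. The replicate block gave 40 genes in the fit of all libraries (51 and 86) and 57 in the fit of 8 (123 and 235). The cause of these shifts was not tested. Of the 27 named genes that differed between the cytokines, 15 held.

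Of the 176 named genes that passed against unstimulated cells, 170 held, and none of the 176 changed direction in any fit run. The marker KRT18, which passed without holding, is not counted among the 176. Named genes were mostly ones that held, so this share does not describe all genes that passed. Of those, 248 of 511 higher and 295 of 579 lower genes held. Other scalings moved the median log2 fold change of all genes by less than 0.1. Totals of 1254254 to 1815955 counts leave levels under 1.47 to 2.58 CPM unmeasured in a library, so falls that end at 0 are bounds and genes absent from the tests may still differ.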

Other observations

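Histone genes were among the larger rises outside the groups described above. The list was put together after their values were seen. Of 18 histone genes tested, 7 rose (5 held) and 0 fell, with a median log2 fold change of 1.02. H2AC19 was at 15.7, 22.6, 23.9 and 23.2 CPM unstimulated and 174, 219.6, 206 and 167 CPM with TNF (log2 fold change 3.17 ± 0.29, adjusted p = 4.04e-11), and H2BC4 at 7.83, 10.2, 13.4 and 16.4 CPM unstimulated and 38.1, 59.4, 66.8 and 67.5 CPM with TNF (log2 fold change 2.28 ± 0.41, adjusted p = 7.50e-05). H2BC5 (log2 fold change 2.09 ± 0.35, adjusted p = 2.89e-05), H4C8 (log2 fold change 1.74 ± 0.44, adjusted p = 0.00475) and H2AC6 (log2 fold change 1.34 ± 0.24, adjusted p = 6.71e-05) also rose and held. In these 5 genes every TNF library was above every unstimulated one. Near-identical histone copies can share reads, so their division among genes is uncertain. As given above, 0 of 38 cell cycle genes passed.

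Feedback regulators changed in small numbers. Of 13 MAP kinase feedback genes, 2 rose, 1 fell, and all 3 held (median 0.08). SPRY2, an inhibitor of growth factor signalling, was at 14.2, 7.29, 11.3 and 17.1 CPM unstimulated and 44.5, 45.6, 36.0 and 27.9 CPM with TNF (log2 fold change 1.61 ± 0.42, adjusted p = 0.00654). The phosphatase DUSP1 rose (log2 fold change 1.37 ± 0.30, adjusted p = 9.28e-04) and its relative DUSP10 fell (log2 fold change -1.08 ± 0.28, adjusted p = 0.00599). Of 12 genes of JAK-STAT signalling 1 passed, the inhibitor SOCS2, at 11.3, 3.65, 21.8 and 34.8 CPM unstimulated and 44.5, 43.1, 71.3 and 80.9 CPM with TNF (log2 fold change 1.75 ± 0.42, adjusted p = 0.00275). In the cholesterol list 3 of 25 genes rose (2 held) and 1 fell (0 held), with a median of 0.22. INSIG1, which restrains sterol synthesis, was at 24.5, 13.9, 36.6 and 30.1 CPM unstimulated and 60.02, 102, 78.0 and 119 CPM with TNF (log2 fold change 1.77 ± 0.32, adjusted p = 6.71e-05), and the synthesis enzyme FDPS rose as well (log2 fold change 1.05 ± 0.20, adjusted p = 1.51e-04). CA12, a carbonic anhydrase on the list of steady-state fibroblast markers, was at 21.5, 23.3, 17.6 and 36.9 CPM unstimulated and 72.02, 66.3, 114 and 117 CPM with TNF (log2 fold change 1.90 ± 0.28, adjusted p = 3.58e-06), while 4 of the 17 tested genes of that list fell (2 held) and 2 rose (1 held, median -0.79, or -0.65 with genes at 0 with TNF set to their bound).

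The remaining lists had few changes that held. Of 21 AP-1 and early response genes 3 rose (1 held) and 1 fell (0 held), with a median of -0.25. The acute-phase list had 4 rises among 5 genes tested (1 held, TFPI2), and 2 of 17 complement genes, 3 of 29 genes of glycolysis and hypoxia and 2 of 12 transcription factors of inflammatory fibroblasts rose with 0 held in each. In the inflammatory fibroblast markers, 10 of 13 rose (9 held), of which 6 are the CXC chemokines given above, and THY1 fell. Of 12 semaphorin and guidance genes 2 rose (0 held) and 1 fell and held, and of 8 innate sensors 0 passed with edgeR, 0 of them at an unadjusted p under 0.05 and 0 with DESeq2. The fibroblast identity list had 6 falls (4 held) and 1 rise (0 held) among 12 genes.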
